A study of Homo sapiens with 24 samples.

Results

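The response of empty-vector Panc-1 cells to doxycycline (Dox) was taken from 8 of the 24 RNA-Seq libraries of the series, 4 Tet-One Dox and 4 Tet-One Control libraries chosen by their labels. Panc-1 is an established human pancreatic ductal carcinoma line, and the Tet-One cells were a puromycin-selected, screened clone that carried the inducible plasmid with no open reading frame inserted. Tet-One Dox cells received 1 µg/ml Dox for 72 h, and Tet-One Control cells were kept without Dox. Both groups were at passage 32 in serum depleted of tetracycline, and both carried the plasmid and its resistance gene, so that the labels tell the groups apart by Dox only. Each group had 4 biological replicates of this clone. The remaining 16 libraries came from Tet-MIST1 and Tet-PTF1a lines, in which the same Dox treatment induces an acinar transcription factor, and they are used here only where the response of Tet-One cells is set beside theirs. The comparison asks what Dox does to the transcriptome when it has no transgene to switch on.

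Doxycycline is a tetracycline that switches a Tet-On promoter by binding the transactivator protein. Tetracyclines also bind the bacterial ribosome and its relative in mitochondria, where they hold back synthesis of the respiratory chain subunits encoded by mitochondrial DNA, and they inhibit matrix metalloproteinases. Mitochondrial stress in mammalian cells is relayed to the nucleus mainly through the integrated stress response and its transcription factor ATF4, and loss of respiration is often met by more glycolysis. For these reasons the gene lists below hold the mitochondrial ribosome and respiratory chain, the ATF4, endoplasmic reticulum (ER) and NRF2 stress programs, glycolysis, lipid synthesis and the metalloproteinases, along with the pancreatic genes that the study follows in the lines with a transgene.

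Of 18 ductal epithelial markers 13 were listed in the Tet-One table, and epithelial keratin genes and VIM were both expressed. KRT8 and KRT18, keratins of simple epithelia whose genes overlap on opposite strands, lay between 2604 and 3101 and between 1468 and 1718 CPM (counts scaled to library size) in the Control libraries. KRT19, a ductal keratin, lay between 652 and 797 CPM there, EPCAM, an epithelial adhesion molecule, between 30.1 and 32.2 CPM, and the intermediate filament gene VIM between 5811 and 6355 CPM. Of the other cell types only 4 of 10 fibroblast, 1 of 7 endothelial, 3 of 10 leukocyte and 2 of 10 islet markers were listed at all, and the leukocyte gene PTPRC and the endothelial gene PECAM1 were not among them. PTF1A and BHLHA15, the human genes of the factors induced in the sister lines, were not in the Tet-One table.

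One Dox library stood apart from all others. Tet-One Dox replicate 1 (Dox 1) held 41648040 counts and was as deep as the rest, which ranged from 35863825 to 41389933, but its genes differed from the mean of Dox replicates 2 to 4 (Dox 2–4) with an SD of 0.571 on the log2 CPM scale. For each of the other 7 libraries the SD against the rest of its group was between 0.0883 and 0.124. The direction of the difference followed the summed exon length of the gene (Spearman's rho -0.776 across 10566 genes of 1 library, a description with no p). Genes of at most 500 bases were 1.00 higher in Dox 1 in the median of 49 genes, those of 1000 to 2000 bases 0.54 higher (1788 genes), those of 3000 to 5000 bases 0.13 lower (log2 -0.13, 3278 genes) and those over 8000 bases 0.84 lower (log2 -0.84, 738 genes). Genes under 1000 bases took 12.3% of the counts of Dox 1 and between 6.97% and 7.45% in the other libraries. The GC content of the genes had little relation to the difference (rho 0.104).

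**Figure D1:**
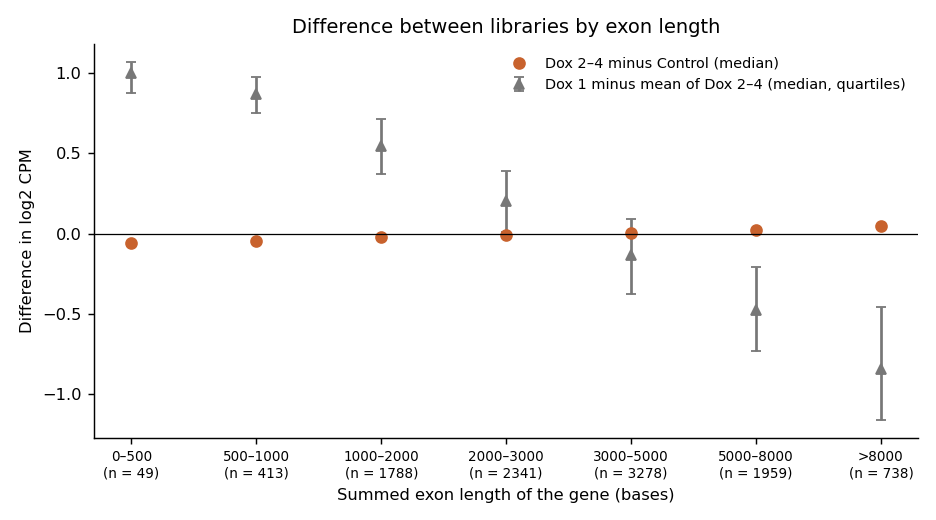
The median difference in log2 CPM between libraries is plotted for 7 classes of summed exon length. Grey triangles give Dox 1 minus the mean of Dox 2–4, with the quartiles of the genes as bars, and fall from 1.00 for the shortest to -0.84 for the longest class, whereas the orange medians of Dox 2–4 minus Control stay between -0.06 and 0.05.

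The genes at both ends showed how far this went. Of 10668 genes with a mean over 5 CPM, 150 (1.41%) were more than 1 log2 unit higher in Dox 1 than in Dox 2–4 and 550 (5.16%) more than 1 lower, with median exon lengths of 876 and 8002 bases against 3349 for all. ROMO1, a small mitochondrial inner membrane protein, led the higher genes with 174 CPM in Dox 1 against 75.6, 66.9 and 73.3 CPM in Dox 2–4. HSPE1, the mitochondrial chaperonin partner, and NDUFC2 and DPM3, subunits of complex I and of dolichol phosphate mannose synthase, were also among the 10 genes highest in Dox 1. KIAA0754 was lowest, at 2.81 CPM in Dox 1 against 64.0, 59.3 and 62.7 CPM in Dox 2–4. It lies inside MACF1 on the same strand, and 4 of the 10 genes lowest in Dox 1 (KIAA0754, ZBED6, DDI2 and PCDHGC3) overlapped another listed gene on their own strand, so that reads could be shared with it. With the dependence on exon length and GC content taken out of each library, Dox 1 still differed from Dox 2–4 with an SD of 0.362. On that scale 54 genes were more than 1 log2 unit higher and 123 more than 1 lower, and not all of them were so before. Results are therefore given for all 8 libraries and again for the 4 Control and 3 Dox 2–4 libraries. Why Dox 1 differs was not tested.

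With all 8 libraries no gene was called. At a false discovery rate (FDR) under 0.05 in edgeR's quasi-likelihood test, 0 of 13428 genes tested (0%) were differentially expressed, the smallest FDR was 0.897, and 401 genes had an unadjusted p under 0.05, 286 higher and 115 lower. DESeq2, edgeR's exact and likelihood ratio tests and limma-voom also called 0 genes, and limma-voom with library quality weights called 1. The biological coefficient of variation, the spread between replicates beyond counting error, was 14.4%, and the 95% interval of the log2 fold change (Dox over Control, the scale of all fold changes below) reached 0.28 to either side of the estimate in the median gene. An interval that lay wholly within 1.5-fold of no change in either direction was found for 10520 genes (78.3%), and 13130 (97.8%) lay within 2-fold.

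Without Dox 1 the same cells gave narrow intervals and a single called gene. The coefficient of variation was 4.79%, the median interval reached 0.12 to either side, and of 13407 genes tested the interval of 10424 (77.8%) lay within a ratio of 25% up or down, of 12584 (93.9%) within 1.5-fold and of 13333 (99.4%) within 2-fold of no change. At FDR under 0.05, 1 gene (0.00746%) was differentially expressed, and it was lower with Dox. An FDR under 0.1 was reached by 14 genes and one under 0.25 by 284, and an unadjusted p under 0.05 by 1636, 927 higher (6.91%) and 709 lower (5.29%). The 3 Dox libraries all lay above the 4 Control libraries for 811 genes (6.05%) and all below for 676 (5.04%). Fold changes below 0 made up 50.9% of all genes. The count of 1 depended on the tool and on single libraries: DESeq2 called 110 genes, edgeR's exact test 103 and its likelihood ratio test 105, and the quasi-likelihood test called 181 without Control 4, 8 without Control 1, 5 without Dox 4 and 0 without Dox 2 or Dox 3.

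**Figure D2:**
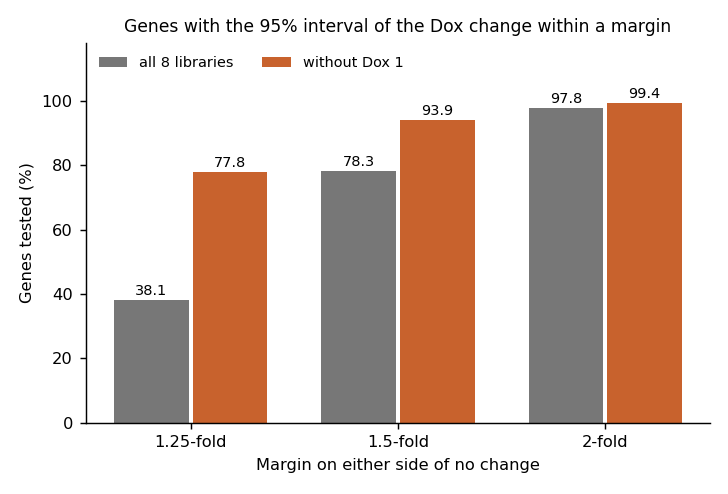
Bars give the percentage of genes tested whose 95% interval of the Dox fold change lay within a ratio of 25%, within 1.5-fold or within 2-fold of no change, with all 8 libraries (grey) and without Dox 1 (orange). Without Dox 1 the share within 25% is 77.8% in place of 38.1%, and within 2-fold the shares are 99.4% and 97.8%.

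The called gene was HMOX1 (chr22:35777060-35790207 in hg19, plus strand), which encodes the inducible heme oxygenase that breaks heme down to biliverdin, iron and carbon monoxide and is a classic target of NRF2. Its level was 58.9, 62.8, 57.6 and 56.7 CPM in the 4 Control libraries, 44.0, 40.2 and 47.8 CPM in Dox 2–4, and 65.2 CPM in Dox 1. Every library of Dox 2–4 lay below every Control library, and Dox 1 lay above all of them. The Control mean was 59.0 ± 2.69 CPM (SD, n = 4) and that of Dox 2–4 was 44.0 ± 3.799 CPM (SD, n = 3). The log2 fold change was -0.43 ± 0.06 (SE), with a 95% interval from -0.55 to -0.31 and FDR = 0.0114. With Dox 1 in the test the fold change was -0.26 and FDR = 0.897. The call also rested on single libraries among Dox 2–4, since the fold change was -0.42 (FDR = 0.464) without Dox 2 and -0.37 (FDR = 0.181) without Dox 3. HMOX1 has 1590 exon bases and a GC content of 57.8%, against medians of 3170 bases and 49.6% for all genes tested. After the trend with both was removed it stayed at -0.41 (FDR = 0.0209). On this scale Dox 1, at a log2 CPM of 5.64, lay below the Control libraries (5.90, 5.93, 5.92 and 5.78). Dox 2–4 were at 5.43, 5.37 and 5.62. With all 8 libraries the fold change was then -0.365 (FDR = 0.868).

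No other gene of heme, iron or the NRF2 response was called in this fit. Of 44 NRF2 target and heme metabolism genes tested, 14 had a fold change above and 30 below 0, HMOX1 alone was called, and the median was -0.03. 1 lay above and 4 below all Control libraries, beside 6.05% and 5.04% of all genes. With all 8 libraries the list turned, with 27 above and 17 below 0, a median of 0.05 and 0 called. HMOX2, the constitutive heme oxygenase, measured 62.7, 71.6, 63.7 and 73.4 CPM in Control and 69.4, 69.2 and 65.7 CPM in Dox 2–4 (105 CPM in Dox 1), an interval of -0.12 to 0.12 around a fold change of 0.00. NQO1, the quinone reductase that is the usual readout of NRF2, measured 148, 155, 139 and 146 CPM in Control and 145, 142 and 143 CPM in Dox 2–4 (210 CPM in Dox 1). Control and Dox 2–4 overlapped in both genes. FTL, the ferritin light chain, had a fold change of -0.09 and an interval from -0.18 to 0.01. SQSTM1, the autophagy receptor that NRF2 induces, lay at 427, 444, 420 and 453 CPM in Control and at 412, 392 and 399 CPM in Dox 2–4 (527 CPM in Dox 1), without overlap of Control and Dox 2–4, and its fold change of -0.12 had FDR = 0.248. After the exon length and GC trend was removed SQSTM1 was called without Dox 1, at -0.15 with FDR = 0.0396. With all 8 libraries it was then at 0.00 (FDR = 0.995). Iron and copper handling genes (25 tested) had a median of 0.00 with 12 above and 13 below 0, and the 25 metallothioneins and zinc transporters a median of -0.01, so that for 24 and 25 of them the interval lay within 1.5-fold.

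**Figure D3:**
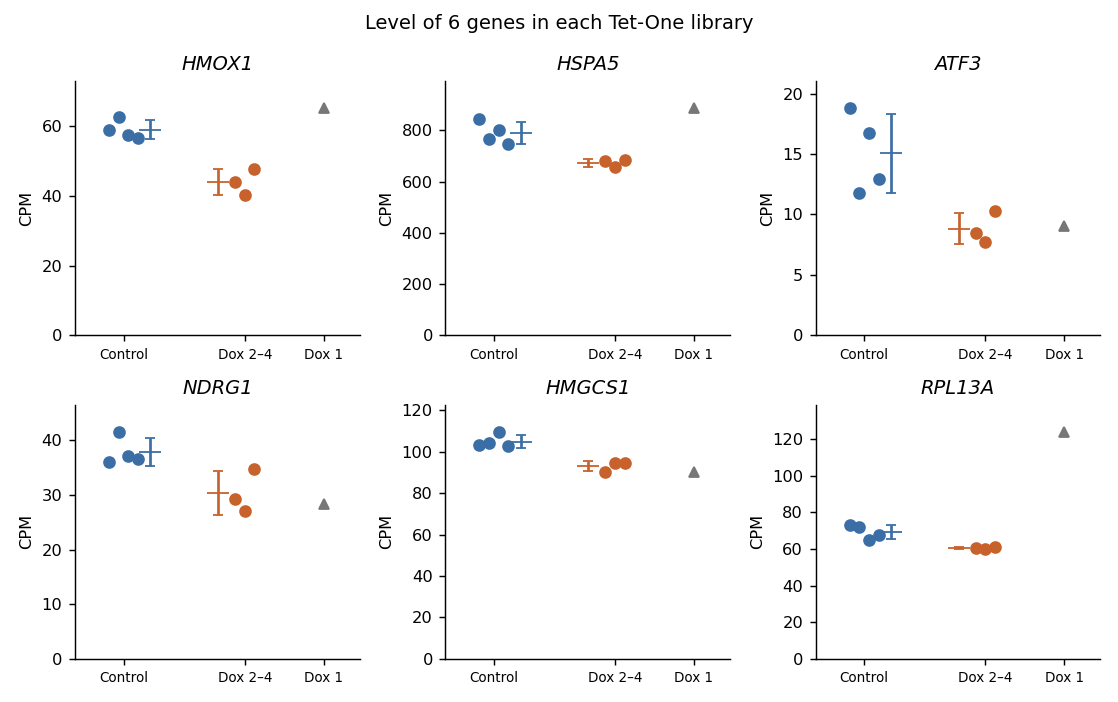
The level in CPM is plotted for 6 genes in every Tet-One library, with Control in blue, Dox 2–4 in orange and Dox 1 as a grey triangle, and horizontal bars give the mean ± SD of Control and of Dox 2–4. Dox 2–4 lie below Control in all 6 genes, and Dox 1 lies above all other libraries for HMOX1, HSPA5 and RPL13A.

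HSPA5 (chr9:127997127-128003666 in hg19, minus strand), the main chaperone of the ER lumen, came next among the lower genes. It measured 844, 768, 802 and 745 CPM in Control, 682, 655 and 683 CPM in Dox 2–4 and 886 CPM in Dox 1. The groups without Dox 1 did not overlap, and the log2 fold change of -0.23 ± 0.04 (SE) had FDR = 0.0879, which was not a call. After the exon length and GC trend was removed HSPA5 was called without Dox 1, at -0.22 with FDR = 0.0209. With all 8 libraries it was then at -0.04 (FDR = 0.942). Of 41 ER chaperone and unfolded protein response genes, 35 had a fold change below 0, the median was -0.06, and 0 were called. 10 lay below and 0 above all Control libraries, beside 5.04% and 6.05% of all genes. HSP90B1, the ER paralog of HSP90, measured 900, 905, 883 and 844 CPM in Control and 760, 796 and 809 CPM in Dox 2–4 (fold change -0.17, FDR = 0.141), with 1036 CPM in Dox 1. HERPUD1, a membrane component of ER-associated degradation, measured 52.9, 41.7, 52.6 and 43.2 CPM in Control and 36.3, 33.8 and 40.3 CPM in Dox 2–4 (-0.38, FDR = 0.246), with 47.3 CPM in Dox 1. Both genes separated the groups with small gaps beside the spread within them. The mean level of the list, in log2 CPM relative to the Control mean, was -0.08, -0.09 and -0.05 in Dox 2–4, between -0.02 and 0.01 in the Control libraries and 0.00 in Dox 1.

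The promoters of these lists are shown because ER genes share a defined element. HSPA5 carries ERSE, the ER stress response element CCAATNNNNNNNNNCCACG, in the 250 bases before its RefSeq start site (GRCh38.p14, chr9:125241344-125241593, minus strand), 66 to 48 bases upstream and in capitals here. ASNS, the asparagine synthetase gene that ATF4 induces, carries the CARE letters TGATGNAAN of an amino acid response element (GRCh38.p14, chr7:97872409-97872658, minus strand) 68 to 60 bases upstream, also in capitals.
HSPA5: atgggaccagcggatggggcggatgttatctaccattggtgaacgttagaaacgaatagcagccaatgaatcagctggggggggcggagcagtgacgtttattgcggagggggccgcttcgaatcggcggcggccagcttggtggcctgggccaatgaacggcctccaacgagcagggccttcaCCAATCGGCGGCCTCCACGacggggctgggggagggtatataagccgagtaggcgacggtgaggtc
ASNS: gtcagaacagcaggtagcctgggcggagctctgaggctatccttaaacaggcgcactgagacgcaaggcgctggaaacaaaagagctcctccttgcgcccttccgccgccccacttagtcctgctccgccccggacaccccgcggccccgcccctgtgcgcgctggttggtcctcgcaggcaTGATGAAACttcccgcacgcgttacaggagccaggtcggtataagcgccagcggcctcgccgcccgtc

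On either strand of such windows, the ERSE letters were found in 7 of 37 ER genes with a promoter in the RefSeq table (18.9%) and in 0.162% of the 9899 promoters of all genes tested. The CARE letters were found in 7 of 32 ATF4 and integrated stress response genes (21.9%) against 2.14%. The hypoxia response core ACGTG was found in 23 of 37 glycolysis and hypoxia genes (62.2%) against 29.3% of all, and it can overlap the end of an ERSE. The sterol element letters TCACNCCAC were found in 1 of 28 cholesterol and fatty acid genes (3.57%) against 1.15%, and the antioxidant element core TGACNNNGC in 8 of 34 NRF2 and heme genes (23.5%) against 16.1%. These are matches of letters in annotated promoters and no measurement of binding.

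Most ATF4 and integrated stress response genes had a fold change below 0, but the Control libraries differed among themselves in this list. Of 51 genes tested 47 had a fold change below 0 and 4 above, the median was -0.24, and 0 were called. 9 lay below all Control libraries, beside 5.04% of all genes, and 1 above, beside 6.05%. In these 3 genes Dox 2–4 lay below all Control libraries. ATF3, an early stress factor, measured 18.8, 11.7, 16.7 and 12.9 CPM in Control and 8.46, 7.74 and 10.3 CPM in Dox 2–4 (-0.77 ± 0.19 SE, FDR = 0.248), with 9.03 CPM in Dox 1. DDIT3, which encodes the stress factor CHOP and overlaps MARS on the other strand, measured 97.1, 63.1, 81.9 and 69.2 CPM in Control and 57.3, 50.9 and 58.1 CPM in Dox 2–4 (-0.49, FDR = 0.333), with 95.6 CPM in Dox 1. PPP1R15A, the phosphatase subunit that ends the response, measured 33.8, 31.4, 31.3 and 31.3 CPM in Control and 28.1, 24.8 and 28.6 CPM in Dox 2–4 (-0.24, FDR = 0.141), with 29.2 CPM in Dox 1. ASNS measured 442, 262, 370 and 267 CPM in Control and 265, 250 and 276 CPM in Dox 2–4, with 361 CPM in Dox 1. SLC7A11, the cystine importer, measured 50.1, 26.9, 44.5 and 26.0 CPM in Control, 25.3, 24.8 and 30.8 CPM in Dox 2–4 and 19.8 CPM in Dox 1.

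ASNS and SLC7A11 show the pattern of the list. Controls 1 and 3 were high, and Controls 2 and 4 lay within the range of the Dox libraries or close to it. The mean level of the 51 genes relative to the Control mean was 0.27 and 0.08 in Controls 1 and 3, -0.19 and -0.16 in Controls 2 and 4, -0.19, -0.32 and -0.15 in Dox 2–4, and -0.20 in Dox 1. The list therefore overlapped between the groups, and its range within Control was wider than that within Dox 2–4.

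Most glycolysis and hypoxia genes also had a fold change below 0, with a different order of the libraries. Of 40 genes tested 34 had a fold change below 0 and 6 above, and the median was -0.17. 12 lay below all Control libraries and 1 above, beside 5.04% and 6.05% of all genes. An unadjusted p under 0.05 was reached by 22, all lower, beside 5.29% of all genes lower and 6.91% higher, and 0 were called. NDRG1, a hypoxia-induced gene, measured 36.01, 41.6, 37.1 and 36.7 CPM in Control and 29.2, 27.0 and 34.8 CPM in Dox 2–4 (-0.32, FDR = 0.185), with 28.3 CPM in Dox 1. PDK1, which keeps pyruvate out of mitochondria, measured 40.9, 48.6, 43.9 and 42.7 CPM in Control and 30.04, 32.6 and 39.7 CPM in Dox 2–4 (-0.37, FDR = 0.21), with 33.5 CPM in Dox 1. VEGFA, the angiogenic factor that hypoxia induces, measured 122, 106, 113 and 99.9 CPM in Control and 89.5, 81.6 and 99.8 CPM in Dox 2–4 (-0.29, FDR = 0.246), with 83.2 CPM in Dox 1. In all 3 genes Dox 4 was the highest Dox library, and for VEGFA it lay just under the lowest Control library. The mean of the list was -0.07, 0.14, -0.06 and -0.01 in the Control libraries and -0.26, -0.23 and -0.06 in Dox 2–4, with -0.17 in Dox 1, so that Dox 4 lay within the Control range.

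Cholesterol and fatty acid synthesis genes had a median nearer to 0. Of 34 genes tested 29 had a fold change below 0, the median was -0.10, and 0 were called. 9 lay below and 2 above all Control libraries, beside 5.04% and 6.05% of all genes. HMGCS1, which makes the precursor of mevalonate, measured 103, 104, 110 and 103 CPM in Control and 90.4, 94.8 and 94.6 CPM in Dox 2–4 (-0.17, FDR = 0.141), with 90.4 CPM in Dox 1. FDPS, the farnesyl diphosphate synthase, measured 281, 306, 283 and 302 CPM in Control and 263, 263 and 256 CPM in Dox 2–4 (-0.17, FDR = 0.141), with 377 CPM in Dox 1. SCD, the stearoyl-CoA desaturase, measured 3043, 3022, 2924 and 2727 CPM in Control and 2444, 2325 and 2788 CPM in Dox 2–4 and 1732 CPM in Dox 1 (-0.22, FDR = 0.21). Dox 4 lay within the Control range of SCD, while HMGCS1 and FDPS did not overlap. MVD, the mevalonate diphosphate decarboxylase, had a fold change of -0.13 (FDR = 0.633) and was among the 6 genes called after the exon length and GC trend was removed (-0.24, FDR = 0.0364). The mean of the list was -0.04, 0.05, -0.03 and 0.01 in Control and -0.10, -0.11 and -0.05 in Dox 2–4, without overlap, and -0.15 in Dox 1.

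**Figure D4:**
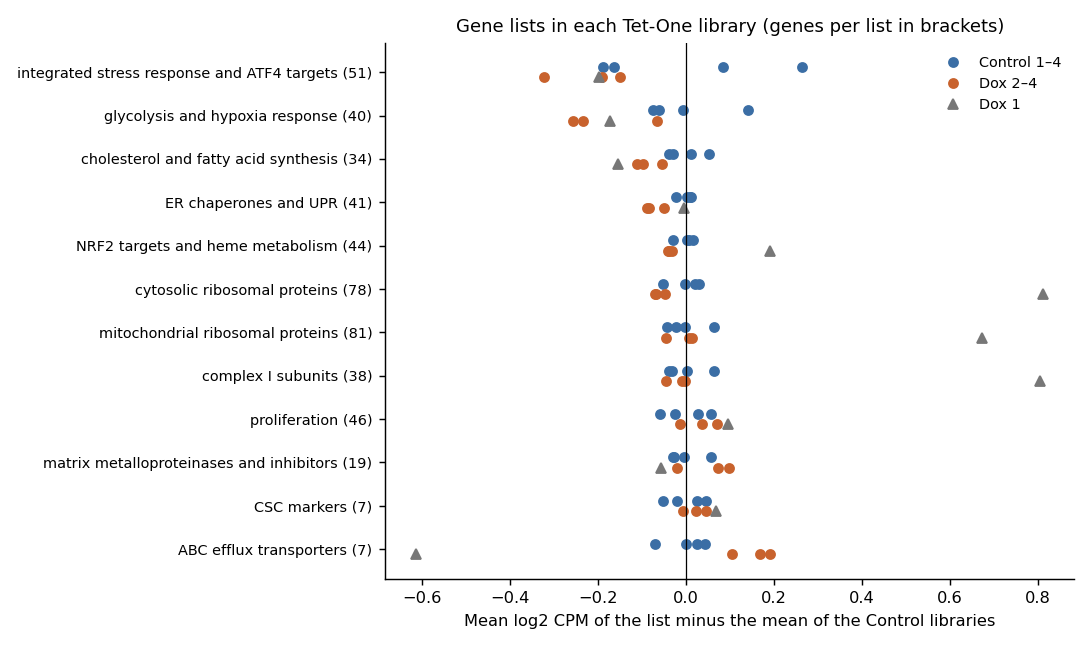
The mean level of gene lists, in log2 CPM relative to the mean of the Control libraries, is plotted for every Tet-One library. The ATF4 list runs from -0.19 to 0.27 within Control and overlaps Dox 2–4, and Dox 1 departs upwards to 0.81 for the cytosolic ribosomal proteins.

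Genes that act in or on mitochondria had narrow intervals around no change. No transcript encoded by mitochondrial DNA was in the Tet-One table, so that the RNAs translated by the mitochondrial ribosome were not analysed here. Of 81 mitochondrial ribosomal protein genes 24 had a fold change above and 57 below 0, with a median of -0.04 and 80 within 1.5-fold. 2 lay above and 6 below all Control libraries, beside 6.05% and 5.04% of all genes. MRPS26, of the small subunit, measured 29.1, 35.2, 36.5 and 37.1 CPM in Control and 40.6, 38.2 and 39.0 CPM in Dox 2–4 (0.18, FDR = 0.329), with 63.1 CPM in Dox 1. MRPS24, also of the small subunit, had the highest fold change of this list (0.70, FDR = 0.281), with 0.847, 1.18, 1.90 and 1.55 CPM in Control and 2.79, 2.14 and 1.87 CPM in Dox 2–4, which overlapped, and 3.66 CPM in Dox 1. All 38 subunits of complex I and all 41 of complexes II to V had intervals within 1.5-fold, with medians of -0.04 and -0.06, and so did all 23 mitochondrial chaperones and proteases (-0.01). NDUFB10 of complex I measured 113, 121, 119 and 130 CPM in Control and 134, 133 and 126 CPM in Dox 2–4 (0.11, FDR = 0.348), which overlapped, and 216 CPM in Dox 1. After the exon length and GC trend was removed, the medians of the mitochondrial ribosome and both groups of respiratory subunits were 0.01, 0.00 and 0.00.

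With Dox 1 included the medians of these mitochondrial lists changed sign. Fold changes above 0 then made up 79 of 81 mitochondrial ribosomal genes (median 0.18), 37 of 38 complex I genes (0.24) and 41 of 41 genes of complexes II to V (0.20), whereas 49% of all genes lay below 0, and 0 of these genes were called. Dox 1 alone lay at 0.67, 0.80 and 0.78 log2 above the Control mean for the 3 lists, and at 0.22, 0.29 and 0.29 after the trend was removed, while Dox 2–4 lay between -0.07 and 0.01. Cytosolic ribosomal proteins, also encoded by short mRNAs, did the same. Without Dox 1 they had 70 of 78 genes below 0 and a median of -0.08. 26 lay below and 0 above all Control libraries, beside 5.04% and 6.05% of all genes. After the exon length and GC trend was removed the median without Dox 1 was -0.03, with 60 of the 78 below 0. With Dox 1 they had 77 of 78 above 0 and a median of 0.21. RPL13A, of the large subunit, showed both, with 72.9, 72.2, 64.95 and 67.7 CPM in Control, 60.7, 59.96 and 61.2 CPM in Dox 2–4 and 124 CPM in Dox 1.

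The matrix metalloproteinases, which tetracyclines inhibit as proteins, had RNA levels close to those of Control. Of 19 metalloproteinase and inhibitor genes tested 14 had a fold change above and 5 below 0, the median was 0.05, and all 19 intervals lay within 1.5-fold. MMP2, a gelatinase, measured 198, 194, 184 and 190 CPM in Control and 212, 197 and 198 CPM in Dox 2–4 (149 CPM in Dox 1), a fold change of 0.08 with an interval from -0.01 to 0.16. MMP16, a membrane-type metalloproteinase, measured 12.2, 9.86, 12.5 and 10.8 CPM in Control and 12.7, 13.0 and 12.7 CPM in Dox 2–4, without overlap (0.17, FDR = 0.388), and 5.29 CPM in Dox 1. Proliferation genes (46 tested) had a median of 0.02, p53 targets (28) -0.02, interferon-stimulated genes (32) -0.06, NF-kappaB and inflammatory genes (15) -0.08, immediate early genes (26) 0.08 and cytosolic heat shock proteins (18) 0.01, with 0 called in each. Every interval of the proliferation, inflammatory and cytosolic heat shock lists lay within 1.5-fold.

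Genes that the study follows after induction of an acinar factor had no call under Dox alone. The 7 tested markers of cancer stem cells had a median of 0.01 and all lay within 1.5-fold. CD44, the hyaluronan receptor among them, measured 1389, 1335, 1382 and 1341 CPM in Control and 1354, 1398 and 1385 CPM in Dox 2–4 (1188 CPM in Dox 1), with an interval from -0.06 to 0.09, and EPCAM had one from -0.15 to 0.07. All 7 ABC efflux transporters tested, which pump drugs out of cells, had a fold change above 0, between 0.07 and 0.47. Of these 3 lay above all Control libraries, beside 6.05% of all genes, and 0 were called. ABCC1 measured 524, 519, 514 and 510 CPM in Control and 574, 536 and 551 CPM in Dox 2–4 (0.10, FDR = 0.317). It measured 286 CPM in Dox 1, and with Dox 1 the median of the 7 was -0.03. The 7 MIST1 target genes of vesicle traffic and the ER had a median of -0.05 and intervals within 1.5-fold, with RAB26, a secretory granule GTPase, at 19.6, 21.3, 19.9 and 19.1 CPM in Control and 20.9, 19.1 and 18.5 CPM in Dox 2–4 (28.6 CPM in Dox 1). Only 3 of 30 digestive enzymes and acinar secretory products were in the table, and 0 were called.

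Beyond the lists, the genes closest to a call were longer and richer in GC when higher than when lower. The 10 higher genes with the smallest p among those whose groups did not overlap included HCFC1, MAP1A, MYO10, SRRM2, TNRC18, SOGA1, HSPG2, KMT2D and PRR12, and the 10 had fold changes between 0.20 and 0.36 and FDR between 0.0879 and 0.0882. They include chromatin regulators (HCFC1 and KMT2D), a splicing scaffold (SRRM2) and the basement membrane proteoglycan perlecan (HSPG2). HCFC1 measured 164, 188, 179 and 192 CPM in Control and 228, 215 and 219 CPM in Dox 2–4, and SRRM2 measured 758, 814, 775 and 780 CPM in Control and 907, 892 and 893 CPM in Dox 2–4. In both genes Dox 1 was the lowest of all libraries, at 105 and 285 CPM, and Dox 1 lay below all Control libraries in 10 of the 10. Their exons sum to between 6943 and 19419 bases with a median GC content of 61.2%, against 3170 bases and 49.6% for all genes tested. Among all 927 genes higher at an unadjusted p under 0.05 the medians were 4368 bases and 60.6%, and among the 709 lower ones 2328.5 bases and 45.2%.

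The same trend ran through the whole comparison of Dox 2–4 with Control. The fold change rose with GC content (rho 0.429 across 10566 genes) and less with exon length (rho 0.24). Its median went from -0.03 in genes with at most 40% GC to 0.17 in those above 65%. Relations to GC content of this size also occurred between libraries of the same treatment. Single libraries set against the rest of their group had rho from -0.599 to 0.582 in Control and from -0.486 to 0.678 in Dox 2–4. When the trend was taken out of each library, 6 genes (0.0448%) were called and all were lower, namely HMOX1, HSPA5, SQSTM1, MVD, RYR1 and FOXD1, and the 10 higher genes had FDR of 0.0571 or more. In that fit, which left out Dox 1, RYR1, a calcium release channel, was at -0.22 (FDR = 0.0364) and FOXD1, a forkhead factor, at -0.24 (FDR = 0.0396). With the trend left in they were at -0.10 (FDR = 0.414) and -0.11 (FDR = 0.426). With all 8 libraries and the trend removed 0 genes were called. The fold changes were then -0.365 for HMOX1, -0.04 for HSPA5, 0.00 for SQSTM1, -0.21 for MVD, 0.31 for RYR1 and -0.14 for FOXD1. For RYR1 Dox 1 lay at a log2 CPM of 8.02 on this scale, and Control between 6.67 and 6.80. Without Dox 1 the stress lists kept their medians when the trend was removed. These were -0.23 for ATF4, -0.16 for glycolysis, -0.09 for cholesterol and -0.05 for ER genes.

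The 10 lower genes chosen in the same way were HMOX1, HSPA5, TSPEAR-AS2, SEC61G, BUD31, ANKZF1, SIAH2, SNAPC1, SPTSSA and ZNF165. TSPEAR-AS2, an antisense long RNA that overlaps no other listed gene, measured 6.001, 6.58, 5.31 and 5.85 CPM in Control, 3.75, 3.53 and 4.79 CPM in Dox 2–4 and 3.48 CPM in Dox 1 (-0.56 without and -0.61 with Dox 1, FDR = 0.0879 and 0.897). SEC61G, a small subunit of the ER translocon, measured 95.2, 101, 93.2 and 96.1 CPM in Control and 76.9, 84.6 and 84.4 CPM in Dox 2–4 (-0.24, FDR = 0.0879). Dox 1 lay at 177 CPM and turned the fold change of SEC61G to 0.13. ZNF165, a zinc finger gene, measured 5.33, 5.23, 5.15 and 5.43 CPM in Control and 4.22, 4.13 and 3.93 CPM in Dox 2–4 (-0.37, FDR = 0.135), with 5.86 CPM in Dox 1. In 8 of these 10 genes Dox 1 lay above all Control libraries and in 2, TSPEAR-AS2 and ANKZF1, below them.

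The response without a transgene was also tested against that with one, by the interaction of line and Dox. The 3 lines are separate clones, and Tet-MIST1 cells were at passage 33, so that the transgene, the clone and its level before Dox cannot be told apart. Both tests use the same Tet-One libraries, without Dox 1. The signed log2 response was larger in Tet-MIST1 than in Tet-One for 1050 genes (7.58% of 13859) and smaller for 910 (6.57%). In Tet-PTF1a it was larger for 1971 (14.6% of 13506) and smaller for 2175 (16.1%). With Tet-One Dox 1 in the test these totals of 1960 and 4146 fell to 232 and 1738.

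HMOX1 started higher in Tet-One cells, at 59.0 CPM in Control against 29.1 ± 1.16 CPM in Tet-MIST1 and 26.0 ± 1.35 CPM in Tet-PTF1a (SD, n = 4 each). Its response was 0.12 in Tet-MIST1 (FDR = 0.151) and 0.18 in Tet-PTF1a (FDR = 0.0012), 0.53 and 0.61 above that of Tet-One (FDR = 0.000383 and 1.72e-07). HMOX1 was chosen for its fall in these same Tet-One libraries, and with Dox 1 the differences had FDR = 0.348 and 0.082. HSPA5 responded by 0.15 in Tet-MIST1 and 0.25 in Tet-PTF1a, 0.37 and 0.48 above Tet-One (FDR = 0.00219 and 1.77e-08). HSPA5 was also picked for its lower level in these Tet-One libraries, and with Dox 1 the differences were 0.26 (FDR = 0.422) and 0.37 (FDR = 0.0468). NDRG1 was 0.73 and 0.53 above Tet-One (FDR = 6.22e-05 and 0.000498), and 0.76 and 0.55 with Dox 1 (FDR = 0.000757 and 0.00378). NDRG1 too lay lower with Dox in these same Tet-One libraries, which both tests reuse, so that its small FDR is no independent result. Of the ER list 16 of 41 genes had a larger and 0 a smaller signed response in Tet-MIST1 than in Tet-One, beside 7.58% and 6.57% of all genes. A larger signed response need not be a stronger one. HSPA5, which lay below 0 in Tet-One and above 0 in Tet-MIST1, counts as larger. In Tet-PTF1a 23 had a larger and 1 a smaller signed response, beside 14.6% and 16.1%. Of the 51 ATF4 genes 17 had a larger and 1 a smaller signed response in Tet-MIST1, and 4 a larger and 2 a smaller one in Tet-PTF1a. Both lists lay mostly below 0 in these same Tet-One libraries, which both tests reuse. For the ATF4 list Controls 1 and 3 of Tet-One were also high. The counts for the lists are therefore no independent result. With Dox 1 the ER list had 2 larger and 0 smaller in Tet-MIST1, and 9 larger and 1 smaller in Tet-PTF1a. The ATF4 list then had 4 larger and 0 smaller in Tet-MIST1, and 3 larger and 2 smaller in Tet-PTF1a. The shares of all genes were 1.49% and 0.188% in Tet-MIST1 and 5.52% and 7.34% in Tet-PTF1a. RAB26, at -0.04 in Tet-One, rose by 2.09 in Tet-MIST1 (difference 2.12, FDR = 1.65e-10), and CD44, at 0.01 in Tet-One, fell by 1.14 in Tet-PTF1a (difference -1.15, FDR = 7.61e-21), so that for these genes the Dox effect without a transgene was small beside that with it.

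**Figure D5:**
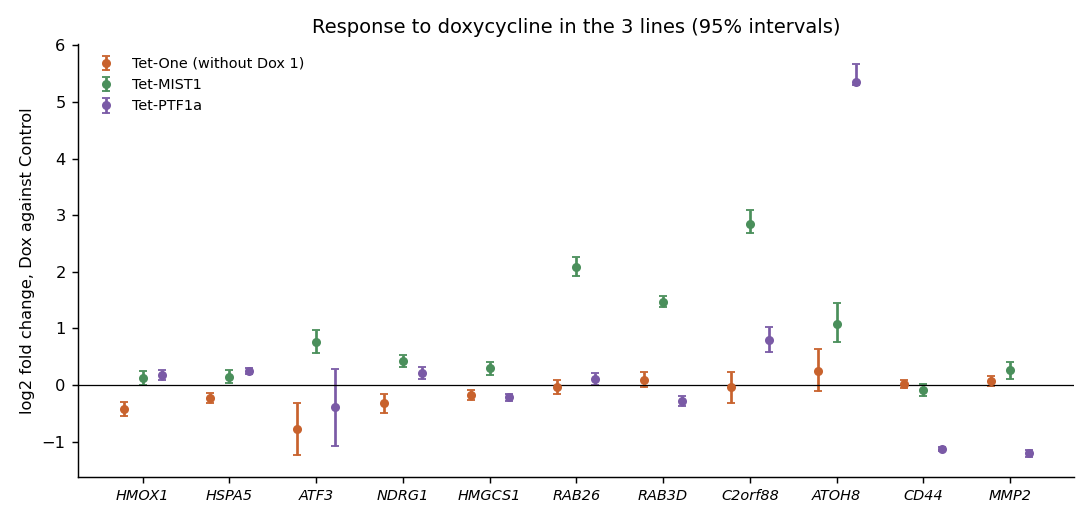
The log2 fold change of Dox against Control is plotted for 11 genes, with the 95% interval of the fold change before shrinkage, in Tet-One (without Dox 1), Tet-MIST1 and Tet-PTF1a cells. HMOX1, HSPA5 and NDRG1 lie below 0 in Tet-One and above 0 in both other lines, while RAB26 stands at 2.09 in Tet-MIST1 and CD44 at -1.14 in Tet-PTF1a.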

How the data were processed

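Raw read counts per gene were deposited by the authors as 1 table per line, made from paired-end Illumina reads of polyadenylated RNA that were aligned to hg19 with TopHat. HTSeq, edgeR and DESeq are also named in the submitters' processing notes. The counting settings, annotation release and use of strand are not given in the sources used here. For the genes KRT8 and KRT18, DDIT3, SQSTM1, SRRM2, HMOX2, HSPE1, ROMO1, VIM, VLDLR and ANKZF1, which overlap a listed gene on the other strand, reads may therefore be shared. The deposited Tet-One table listed 13879 genes, of which 13428 were above 0.5 CPM in at least 4 of its 8 libraries, the filter that the study's methods give. The tables also held 9 columns of the authors' own comparisons (fold changes, p-values and the like) and 24 columns of other per-sample values, and none of these was used.

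Counts were fitted in R 4.3.3 with edgeR 4.0.16 (TMM scaling, over 0.5 CPM in at least 4 libraries, robust quasi-likelihood test, Benjamini-Hochberg FDR under 0.05), in the 8 Tet-One libraries and again without Dox 1. CPM values use the TMM-scaled library sizes. The 95% intervals come from the coefficient before shrinkage and the F statistic, and printed fold changes carry a prior count of 2. CPM levels are not corrected for gene length and were not compared between genes. Library totals of 35863825 to 41648040 limit the precision of genes with few counts. Alternatives were other scalings and filters, DESeq2 1.42.0, edgeR's exact and likelihood ratio tests, limma 3.58.1 (voom), a replicate block, splines of exon length and GC content with 5 degrees of freedom taken out of each library, and each library left out. Voom with library quality weights was added after seeing the data.

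The libraries, gene lists and tests were chosen with earlier results of these data known. Genes are named if called, if among the 10 higher and 10 lower genes with the smallest p among non-overlapping genes over 1 CPM without Dox 1, if among the 10 highest and 10 lowest in Dox 1, or as members of a list. One gene that met this rule is not reported here. Replicate numbers did not pair the libraries. The deviations of same-numbered Control and Dox libraries correlated between -0.244 and 0.18, so that no block was used for the results above.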

Additional observations from a re-analysis of the deposited data

Results flagged for a closer look

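Of 162 sets of 4 Tet-One libraries checked, 38 had 1 library whose gap to its nearest neighbour exceeded Dixon's 95% critical share of the group's range, where chance gives about 1 in 20, and in 36 of them this was Dox 1. The sets share the same libraries, Dox 1 was known to stand apart, and some genes, such as ROMO1 and KIAA0754, were chosen for their level in it, so that this number describes Dox 1 and tests nothing. Dox 1 was high, with the gap as a share of the range, for RPS16 (0.987 of its CPM and 0.985 of its share of counts), RPL13A (0.98), NQO1 (0.951), FDPS (0.945), SEC61G (0.924), ROMO1 (0.919), FTL (0.911), NDUFB10 (0.91), MRPS26 (0.906), HMOX2 (0.905), VIM (0.903), KRT19 (0.892), HSPA5 (0.878), EPCAM (0.866), SQSTM1 (0.852), ZNF165 (0.852) and DDIT3 (0.837). It was low for SRRM2 (0.976), MMP16 (0.956), KIAA0754 (0.922), HCFC1 (0.9) and ABCC1 (0.867). Among list means Dox 1 was high for cytosolic ribosomal proteins (0.976), mitochondrial chaperones and proteases (0.965), NRF2 and heme genes (0.953), complex I (0.948), mitochondrial ribosomal proteins (0.919), complexes II to V (0.913), replication-dependent histones (0.903), metallothioneins and zinc transporters (0.886) and the induction markers of the sister lines (0.854), and low for ABC transporters (0.892). Its share of counts on genes under 1000 bases was high (0.976), and that on genes over 5000 bases (0.935) and its TMM factor (0.928) were low. RPS16, a small subunit ribosomal protein gene, took 1.99% of the counts of Dox 1 and between 1.03% and 1.10% in the other libraries. Outside Dox 1, PPP1R15A was high in Control 1 (0.938) and FTL low in Control 3 (0.885).

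The response to Dox differed from that of Tet-One cells for 17 of 22 combinations of gene and line tested by the interaction in edgeR, without Tet-One Dox 1. With it 13 of the 17 were called, and those lost were HMOX1 in Tet-MIST1 (FDR = 0.348) and Tet-PTF1a (FDR = 0.082), HSPA5 in Tet-MIST1 (FDR = 0.422) and ATOH8 in Tet-MIST1 (FDR = 0.175). The values that follow are those without Dox 1. HMOX1, HSPA5, ATF3, NDRG1 and HMGCS1 lay lower with Dox in these same Tet-One libraries, which the test reuses. In Tet-MIST1 the signed log2 response was larger by 2.88 for C2orf88, 2.12 for RAB26, 1.52 for ATF3, 1.37 for RAB3D and 0.81 for ATOH8. It was larger by 0.73 for NDRG1, 0.53 for HMOX1, 0.46 for HMGCS1 and 0.37 for HSPA5. In Tet-PTF1a the difference was 5.12 for ATOH8, 0.83 for C2orf88, 0.61 for HMOX1, 0.53 for NDRG1, 0.48 for HSPA5, -0.38 for RAB3D, -1.15 for CD44 and -1.28 for MMP2.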

How the results depend on the processing

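The count of 0 called genes with all 8 libraries held under 13 planned settings and moved to 1 with limma-voom and library quality weights, and from 0 to 1 across the fits that left out each library. Without Dox 1 the count of 1 was 2 with library size scaling only (1 higher, 1 lower), 6 with the exon length and GC trend removed (0 higher), 110 with DESeq2 (79 higher), 103 with edgeR's exact test (69 higher) and 105 with its likelihood ratio test (70 higher), and it ran from 0 to 181 when 1 more library was left out. With the replicate number as a block it was 31 (27 higher), and 3 with the block and the trend removed together, although same-numbered libraries did not deviate together. HMOX1 lay below 0 in all 22 alternatives, between -0.49 and -0.26, and was called in 18. It was lost with Dox 1, without Dox 2, without Dox 3, and under the block with the trend removed (FDR = 0.182), and the cause was not tested. With all 8 libraries the interval of 5116 genes lay within a ratio of 25% of no change and that of 10520 within 1.5-fold. The number within 1.5-fold ran from 9140 to 12584 over single libraries left out there. It ran from 12242 to 12601 without Dox 1. The genes whose response differed in Tet-MIST1 were 232 with Tet-One Dox 1, 616 under the replicate block and from 1083 to 3053 with 1 library left out. Those that differed in Tet-PTF1a were 1738 with Tet-One Dox 1 and from 3579 to 4323 with 1 library left out. HMOX1, the gene called without Dox 1, never changed direction. The 95% interval of the median gene reached 0.28 log2 to either side with 8 libraries and 0.12 without Dox 1.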
